A study of Rattus norvegicus with 11 samples.

Results

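The genes described here are the cyclins, the cyclin-dependent kinases (CDKs) and their inhibitors, and the proteins that license and start DNA replication, together with the other genes that carry a CDC name. They were chosen by symbol: A to H and K type cyclins, numbered CDKs, the inhibitors of the Cdkn1 and Cdkn2 families, numbered MCM and CDC genes and the 6 subunits of the origin recognition complex, without Ccnd1 and Cdkn1c. Of the 14506 genes that the array table names, 68 met this rule. Mcm3, Mcm4 and Cdkn2d were not analysed here, because no part of the table was paired with their symbol alone.

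DAc2, a line of rat embryonic stem cells, was followed on 11 Affymetrix Rat Gene 1.0 ST arrays during its conversion to hypoblast stem cells (cHypoSCs), which resemble the extraembryonic endoderm of the early embryo. Feeder-free stem cells had been grown on laminin with 3 µM of the GSK3 inhibitor CHIR99021, 2 µM of the MEK inhibitor PD0325901 and 5 ng/mL BMP4, while stem cells on mouse embryonic fibroblasts (the feeder culture) had received CHIR99021 at the same 3 µM and PD0325901 at 0.5 µM, without BMP4. Conversion used 1 medium for both, with LIF, EGF, PDGF and 2% serum. The feeder-free culture had 1 array at day 0 and 2 arrays, labelled biological replicates, at each of days 7, 17 and 32, and the feeder culture had 1 array per day. All arrays thus came from a single cell line, the labels do not say whether fibroblasts were present during conversion, and the layer, the inhibitor dose and BMP4 cannot be told apart as sources of a difference between the cultures. "On feeder cells" names the culture whose stem cells had grown on fibroblasts, at every day. Values are log2 expression, on which each unit is a factor of 2, and levels of different genes are not compared.

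A cell enters the division cycle when D-type cyclins, which respond to growth factors, activate CDK4 and CDK6, and when E-type cyclins then activate CDK2. Both kinase complexes phosphorylate the retinoblastoma protein and so release E2F transcription factors, whose targets include replication genes, and the INK4 (Cdkn2) and CIP/KIP (Cdkn1) proteins hold the kinases in check. Each origin is licensed in G1, when the origin recognition complex and CDC6 load the ring of MCM2 to MCM7 proteins, it is fired with CDC7 and CDC45, and CDK1 with B-type cyclins later drives mitosis. Embryonic stem cells are known for a short G1 phase and high CDK activity.

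The labelled conversion was seen in its markers. The mean level of 8 hypoblast markers was 9.34 without feeder cells and 9.03 on feeder cells at day 0 and lay between 13.5 and 13.8 on all arrays of days 17 and 32. At day 7 it was 13.2 and 13.3 on the feeder-free arrays but 10.8 on the feeder array, and the mean of 8 naive pluripotency markers was 11.8 and 11.9 on the former but 12.8 on the latter. The feeder array of day 7 thus stood closer to the stem cells. Without it all 15 genes called from day 0 to day 7 and all 22 called from day 0 to day 32 still passed, while a difference between the cultures in a change to or from day 7 rests on this array alone and cannot be given without it. The mean of 6 trophoblast markers was 9.94 without and 9.85 on feeder cells at day 0. It was 12.03 and 12.17 on the feeder-free arrays of day 7, 10.66 on the feeder array and 9.15 to 9.35 on all later arrays. Cdx2 was instead lower at day 7 than at day 0 in both cultures, and Tfap2c was not higher without feeder cells. Fibroblast markers moved with the feeder culture: the mean of 10 was 9.98, 9.20, 8.62 and 8.51 at days 0, 7, 17 and 32, against 8.35 to 8.45 on the feeder-free arrays. At feeder day 0 all 10 were above every feeder-free array. At days 7, 17 and 32 the feeder array was above the feeder-free arrays of the same day for 8, 6 and 6. In bulk RNA fewer cells of a type and less RNA per cell cannot be told apart.

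**Figure D1:**
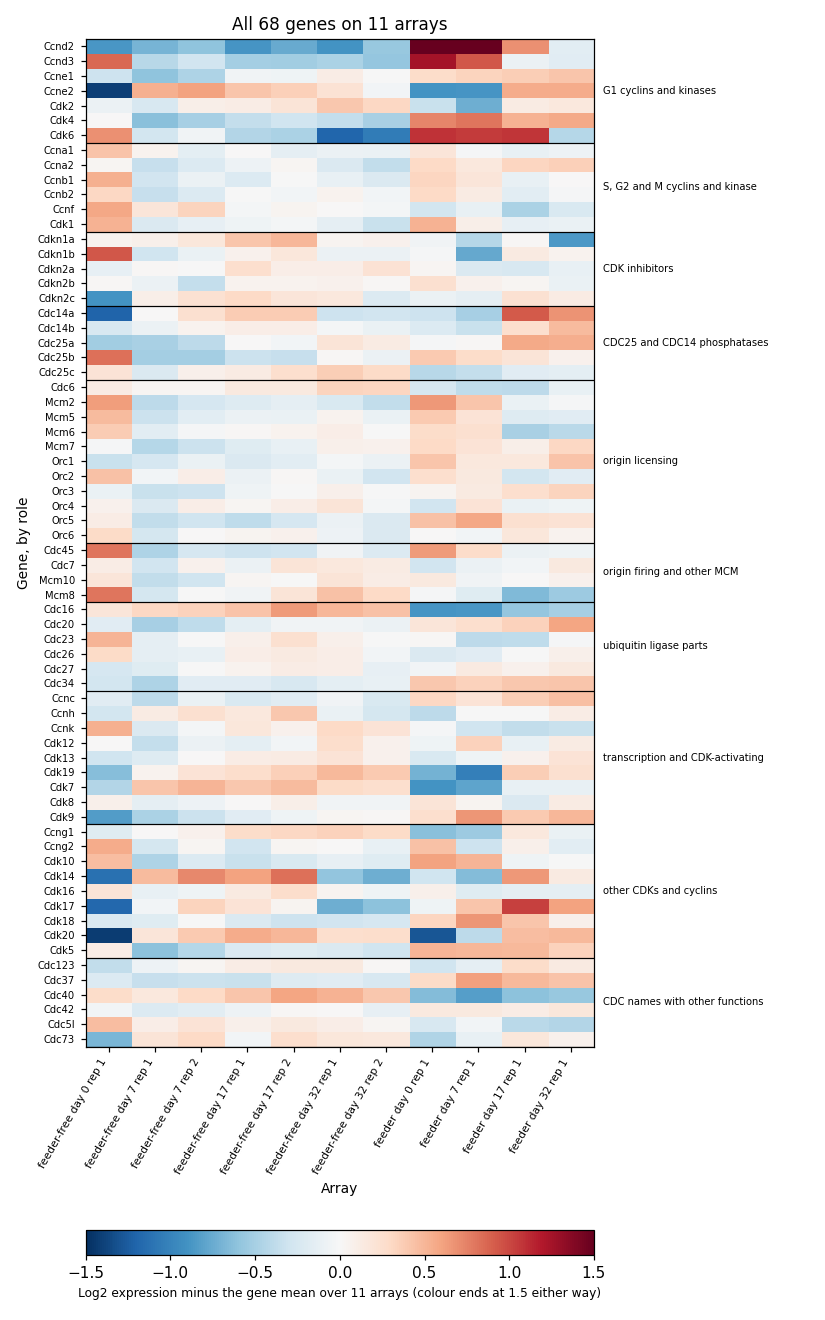
Colour gives the log2 expression of each of the 68 genes (vertical axis, grouped by role) minus that gene's mean over the 11 arrays (horizontal axis). Ccnd2, Ccnd3, Cdk4 and Cdk6 are red on the first feeder arrays, and Ccne2 and Cdk20 are blue on both arrays of day 0.

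Over the conversion the genes moved in both directions. From day 0 to day 32, 22 of the 68 passed the test (limma with terms for day and culture, Benjamini-Hochberg adjusted p under 0.05), 11 higher and 11 lower, which is 32.4% against 31% of all genes (17.4% higher, 13.7% lower). A further quantile normalization gave 10 higher and 16 lower. Between day 0 and day 7, 15 passed, 3 higher and 12 lower, against 16% of all genes (6.74% higher, 9.27% lower), and with quantile normalization 6 were higher and 11 lower. The median change of the 68 in this interval was -0.13, against -0.04 for all genes. Their mean level was 11.42 and 11.57 on the first and second feeder-free array of day 7. At day 0 it was 11.59 without and 11.68 on feeder cells. The replicates of day 7 thus differed in level across the set. From day 7 to day 17 Ccng1 and Cdc25a passed, both higher, against 12.8% of all genes (9.1% higher, 3.65% lower), and with quantile normalization 1 was higher and 2 lower. From day 17 to day 32 no gene passed, 0% of all genes, although 6 of the 68 and 1057 of the 14506 had an unadjusted limma p under 0.05. The same comparison passed 5 of the 68, all lower at day 32, when the arrays of days 17 and 32 were fitted alone. They were Cdk6, Cdk14, Cdk17, Cdc14a and Cdkn1a. Counts of the 68 under other settings, here and below, are given without the share of all genes in that setting. Such counts show how far a count moved and not a difference from all genes. The 8-group fit and the feeder-free arrays alone each passed 6, and the fit without the feeder array of day 7 passed 3.

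The first interval rested on few arrays. Without the feeder-free array of day 0 only Cdk20 passed from day 0 to day 7, without the first or second feeder-free array of day 7 the count was 3 or 6, and without the feeder array of day 7 it was 32. The calls of Cdc25b and Mcm10 in this interval held in 2 of the 11 fits that left out an array. For day 0 to day 32 the count was 8 without the feeder-free array of day 0 and 34 without the feeder array of day 7. Ccnd3, Ccng1, Cdc25a, Cdk1, Cdk20 and Cdk6 passed from day 0 to day 32 whichever array was left out.

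The G1 cyclins and their kinases differed in which way they moved. Cdk6 and Ccnd3 fell from day 0 to day 32 in both cultures, Ccne2 rose, and Ccnd2, Ccne1, Cdk2 and Cdk4 did not pass. Cdk6, the D-cyclin kinase that with CDK4 starts the phosphorylation of the retinoblastoma protein, was at 9.80 on the feeder-free array of day 0, at 8.83 and 9.06 at day 7, at 8.67 and 8.63 at day 17 and at 7.92 and 8.06 at day 32. In the feeder culture it was at 10.20, 10.16 and 10.18 at days 0, 7 and 17 and at 8.68 at day 32. Both cultures were thus lowest at day 32, but the feeder culture stayed at its starting level for longer. The change from day 0 to day 32 was -1.61 ± 0.23 (SE, adjusted p = 0.00128), and that from day 17 to day 32, -0.94 ± 0.20 (SE), did not pass in the same fit (adjusted p = 0.242). At day 32 without feeder cells Cdk6 lay below 8.10, the 95th percentile of the values of 1240 olfactory and vomeronasal receptor genes taken as background.

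Ccnd3, a D-type cyclin, was at 14.07 on the feeder-free array of day 0, 12.79 and 12.91 at day 7, 12.69 and 12.68 at day 17 and 12.73 and 12.62 at day 32. The feeder arrays stood at 14.45, 14.14, 13.11 and 13.03. Both arrays of day 0 were above all later feeder-free arrays, and the feeder array of day 7 was still at the level of the stem cells. The change from day 0 to day 32 was -1.36 ± 0.21 (SE, adjusted p = 0.00179), nearly equal without feeder cells (-1.39) and on them (-1.42). From day 0 to day 7 it was -1.22 without and -0.32 on feeder cells, and this difference of 0.90 ± 0.19 (SE) passed its own test (8-group fit, adjusted p = 0.00311).

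Ccnd2, another D-type cyclin, differed between the cultures more than any other of the 68 genes, with a feeder minus feeder-free difference of 1.97 ± 0.40 (SE, adjusted p = 0.00521). Its feeder-free levels were 8.75 at day 0, 8.93 and 9.03 at day 7, 8.74 and 8.87 at day 17 and 8.73 and 9.05 at day 32. On feeder cells it was at 12.61, 11.39, 10.32 and 9.47. Every feeder array was above every feeder-free array, and the gap was smaller at each later day. Between day 0 and day 32 the change was -3.14 on feeder cells and 0.14 without, a difference of -3.28 ± 0.22 (SE, adjusted p = 8.74e-07). The mean of the fibroblast markers given above moved with it, but the single markers differed in their course. Prrx1 was at 11.78, 10.90, 9.42 and 8.58 on the feeder arrays and between 8.40 and 8.71 on the feeder-free arrays. Col1a1 was at 13.13, 11.15, 10.19 and 10.004 against 9.57 to 10.04. Twist2, in contrast, was at 10.45, 10.14, 10.23 and 9.45 on the feeder arrays. Col3a1 was at 10.14, 9.07, 8.94 and 8.98 there, against 8.87 to 9.25. The part of these markers in the Ccnd2 result was not tested.

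Cdk4, the other D-cyclin kinase, was higher on feeder cells on every day. It was at 14.94, 15.02, 14.74 and 14.78 there, against 14.23 at day 0 and 13.59 to 13.92 on the later feeder-free arrays, with no overlap and a difference of 1.00 ± 0.10 (SE, adjusted p = 0.000106). Over time it did not pass in this fit (day 0 to day 32, -0.30 ± 0.14, SE, adjusted p = 0.159). The change was -0.43 without feeder cells and -0.16 on them. Cdk4 was called lower over these days in the 8-group fit, on the feeder-free arrays alone and without the feeder array of day 7. Cdk6 and Ccnd3 were also higher on feeder cells over all days, by 0.99 ± 0.16 and 0.63 ± 0.15 (SE), while their ranges overlapped between the cultures. Fibroblasts express D-type cyclins and their kinases as well, and the mean of the fibroblast markers was higher in the same culture. The part of these cells in the 3 differences was not tested.

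Ccne2, an E-type cyclin and partner of CDK2, was among the largest rises of the 68 genes. It was at 9.05 on the feeder-free array of day 0, at 11.001 and 11.07 at day 7, at 10.89 and 10.82 at day 17 and at 10.68 and 10.43 at day 32. In the feeder culture it was at 9.57 and 9.58 at days 0 and 7 and at 11.02 and 11.03 at days 17 and 32. Both cultures went from a low to a high level, the feeder-free cells before day 7 and the feeder culture after it. The change from day 0 to day 32 was 1.38 ± 0.41 (SE, adjusted p = 0.0325). This call held in 6 of the 11 fits that left out an array and was lost with the replicate number as a block. Up to day 7 the change was 1.98 without and 0.01 on feeder cells (difference -1.98 ± 0.20, SE, adjusted p = 7.92e-06), and from day 7 to day 17 it was -0.18 and 1.44 (difference 1.62 ± 0.19, SE, adjusted p = 2.8e-05).

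The other E-type cyclin, Ccne1, did not pass over time (day 0 to day 32, 0.28 ± 0.13, SE, adjusted p = 0.14). It was higher on feeder cells, at 12.63 to 12.76 against 11.74 to 12.46, a difference of 0.56 ± 0.09 (SE, adjusted p = 0.00146) without overlap. Cdk2, the kinase of both, had a change of 0.46 ± 0.16 (SE) from day 0 to day 32 with an adjusted p of 0.0535, and it passed when the arrays were centred on the median of the genes. In the 7 genes of this group 5 were higher on feeder cells and none lower (Cdk2 passed as lower under either other scaling), against 15.5% of all genes higher and 17.2% lower, with a median difference of 0.63 against -0.04 for all genes.

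**Figure D2:**
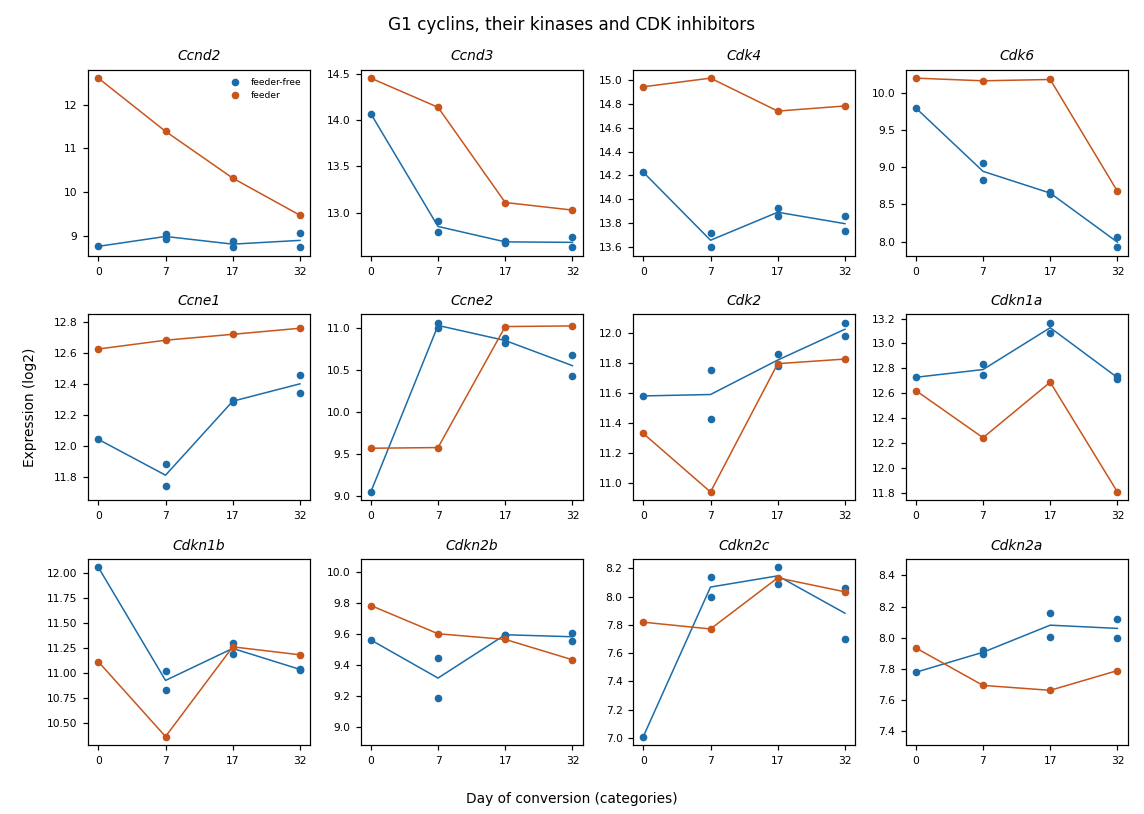
Each panel plots log2 expression of 1 G1 cyclin, kinase or CDK inhibitor against the day of conversion, evenly spaced, with a point per array and lines through the means of the feeder-free (blue) and feeder (orange) cultures. Ccnd2 goes from 12.61 to 9.47 in the feeder culture and stays between 8.73 and 9.05 without feeder cells, and Ccne2 is high from day 7 without feeder cells and from day 17 on them.

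No CDK inhibitor passed from day 0 to day 32 in the fit with terms for day and culture, and none rose in any interval of it. Other settings called some of them over the same days. Cdkn1b passed as lower with quantile normalization, in the 8-group fit, on the feeder-free arrays alone and without the feeder array of day 0 or of day 32. Cdkn2c passed as higher in the 8-group fit, on the feeder-free arrays alone and without the feeder array of day 0 or of day 7, and Cdkn1a as lower in the 8-group fit and without the feeder-free array of day 0. From day 7 to day 17 Cdkn1a and Cdkn1b passed as higher in the 8-group fit and on the feeder-free arrays alone, and Cdkn1a also without the feeder array of day 32. Cdkn1b, which encodes p27 and inhibits the cyclin E kinase, fell from day 0 to day 7 (-0.90 ± 0.23, SE, adjusted p = 0.0304). Without feeder cells it was at 12.05 at day 0, 10.82 and 11.02 at day 7, 11.19 and 11.30 at day 17 and 11.03 and 11.04 at day 32. The feeder arrays stood at 11.11, 10.36, 11.26 and 11.18. The feeder-free array of day 0 stood above all the others, so that the change from day 0 to day 32 was -1.02 without feeder cells and 0.07 on them, a difference of 1.09 ± 0.20 (SE, adjusted p = 0.00246) that rests on 1 array of day 0 in each culture. The call from day 0 to day 7 was lost without the feeder-free array of day 0, either feeder-free array of day 7 or the second feeder-free array of day 17. It was also lost with the replicate number as a block and without the culture term.

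Cdkn1a, which encodes p21, was at 12.73 without feeder cells at day 0, 12.74 and 12.84 at day 7, 13.09 and 13.17 at day 17 and 12.71 and 12.74 at day 32. On feeder cells it was at 12.62, 12.24, 12.69 and 11.81. All feeder arrays were below all feeder-free arrays (difference -0.53 ± 0.11, SE, adjusted p = 0.0056), and the feeder array of day 32 was the lowest. The INK4 genes showed small values: Cdkn2b ranged from 9.19 to 9.78 and Cdkn2a from 7.66 to 8.16, and neither passed between days, nor between the cultures with terms for day and culture. Cdkn2c, a further INK4 gene, was at 7.01 on the feeder-free array of day 0 and between 7.70 and 8.21 on the other 10 arrays. Its change from day 0 to day 7 differed between the cultures by -1.11 ± 0.23 (SE, adjusted p = 0.00313). The means of Cdkn2a and Cdkn2c lay below the 8.10 of the receptor genes, as did that of Ccna1, so the values of these 3 genes could not be told from background.

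The mitotic kinase and its cyclin fell. Cdk1 was at 12.90 on both arrays of day 0. It was at 12.17 and 12.26 at day 7, 12.32 and 12.35 at day 17 and 12.25 and 12.04 at day 32 without feeder cells, and at 12.47, 12.27 and 12.28 on feeder cells. Both arrays of day 0 were above all 9 later arrays, and the changes were -0.59 ± 0.11 to day 7 (SE, adjusted p = 0.00976) and -0.70 ± 0.11 to day 32 (SE, adjusted p = 0.00164).

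Ccnb1, the B-type cyclin that activates CDK1, was at 13.73 and 13.52 at day 0 without and on feeder cells. Later it was between 12.92 and 13.19 without feeder cells and at 13.38, 13.08 and 13.20 on them. Its changes were -0.48 ± 0.14 to day 7 (SE, adjusted p = 0.0487) and -0.52 ± 0.14 to day 32 (SE, adjusted p = 0.02). The call to day 7 held in 2 of the 11 fits that left out an array, and without the feeder-free array of day 0 the change was -0.27. Ccnb2 was also highest at day 0, at 12.08 and 12.07, but did not pass (day 0 to day 32, -0.29 ± 0.13, SE, adjusted p = 0.122). Ccna2, the S-phase cyclin, did not pass over time and was higher on feeder cells, at 12.85 to 13.04 against 12.32 to 12.72 (difference 0.43 ± 0.08, SE, adjusted p = 0.00246). Ccnf, which encodes a ubiquitin ligase subunit of the cyclin family, was lower on feeder cells (-0.46 ± 0.09, SE, adjusted p = 0.00596). Ccna1, the A-type cyclin known from the germ line, fell from day 0 to day 32 (-0.40 ± 0.10, SE, adjusted p = 0.0181), at values near background as said above. Of the 6 genes for S, G2 and M cyclins and kinase 3 fell from day 0 to day 32, Ccna1 near background among them, and none rose, against 13.7% of all genes lower and 17.4% higher. The median change was -0.36 against 0.05 for all genes.

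Of the 11 licensing genes Mcm2, Mcm5 and Orc2 fell from day 0 to day 32, none rose, and 8 did not pass. These 27.3% are near the 31% of all genes (17.4% higher, 13.7% lower), and the median change was -0.21 against 0.05. Mcm2, a subunit of the replicative helicase ring, was at 14.16 without and 14.18 on feeder cells at day 0. Without feeder cells it was at 13.15 and 13.28 at day 7, 13.35 and 13.40 at day 17 and 13.30 and 13.17 at day 32, and on feeder cells at 13.95, 13.44 and 13.52. The stem cells of both cultures had the same level, the feeder-free cells were at the lower level by day 7, and the feeder culture reached it by day 17. The change was -0.66 ± 0.16 to day 7 (SE, adjusted p = 0.0277) and -0.79 ± 0.16 to day 32 (SE, adjusted p = 0.00624). The change to day 7 was smaller on feeder cells by 0.72 ± 0.19 (SE, adjusted p = 0.0159), and the change from day 7 to day 17 differed by -0.67 ± 0.18 (SE, adjusted p = 0.0164).

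Mcm5, of the same ring, was at 13.39 and 13.31 at day 0. It was at 12.59 and 12.75 at day 7 without feeder cells and at 13.12 on them, and between 12.73 and 12.97 on all arrays of days 17 and 32. Its changes were -0.52 ± 0.15 to day 7 (SE, adjusted p = 0.0461) and -0.50 ± 0.15 to day 32 (SE, adjusted p = 0.0336). The call to day 7 was lost with quantile normalization and held in 1 of the 11 fits that left out an array, and that to day 32 held in 5. Mcm6 had the same order of values, 13.28 and 13.18 at day 0 and 12.42 to 13.00 at days 17 and 32, but a wider spread between the cultures and an adjusted p of 0.0985. Mcm7, also of the ring, was not lower at the end: it was at 13.44 without feeder cells at day 0 and at 13.53 and 13.51 at day 32, and at 13.75 and 13.76 on feeder cells (change 0.07 ± 0.10, SE, adjusted p = 0.694). The ring genes measured here therefore did not all move alike.

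Orc2, of the origin recognition complex, was at 12.53 and 12.35 at day 0 and between 11.80 and 12.11 at days 17 and 32 (change -0.55 ± 0.12, SE, adjusted p = 0.00717). The other 5 subunits did not pass over time, and their changes to day 32 ran from -0.22 (Orc6) to 0.21 (Orc3). Orc1, the subunit whose level varies with the cell cycle, was higher on feeder cells, at 11.68 to 11.95 against 11.19 to 11.50 (difference 0.46 ± 0.08, SE, adjusted p = 0.00195). Orc3, Orc5 and Mcm7 were higher there too. Cdc6, which loads the ring with the origin recognition complex, was the 1 licensing gene that was lower, at 11.85 to 12.13 against 12.26 to 12.57 (difference -0.45 ± 0.05, SE, adjusted p = 0.000276).

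Cdc45, which joins the ring to form the active helicase, had the largest fall among the firing genes. It was at 12.14 without and 11.97 on feeder cells at day 0. Without feeder cells it was at 10.87 and 11.08 at day 7, 11.02 and 11.04 at day 17 and 11.27 and 11.12 at day 32, and on feeder cells at 11.61, 11.24 and 11.26. The day 0 arrays were above all others, and the feeder array of day 7 lay between the levels. The change was -0.83 ± 0.17 to day 7 (SE, adjusted p = 0.014) and -0.80 ± 0.17 to day 32 (SE, adjusted p = 0.00672). Mcm10, which acts with CDC45 at firing, fell to day 7 (-0.40 ± 0.10, SE, adjusted p = 0.0353) and at day 32 was at 11.75 and 11.66 without feeder cells against 11.74 at day 0. Cdc7, the kinase that phosphorylates the ring, did not pass in any comparison. Mcm8, which acts in DNA repair, was lower on feeder cells (-0.62 ± 0.14, SE, adjusted p = 0.00946).

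**Figure D3:**
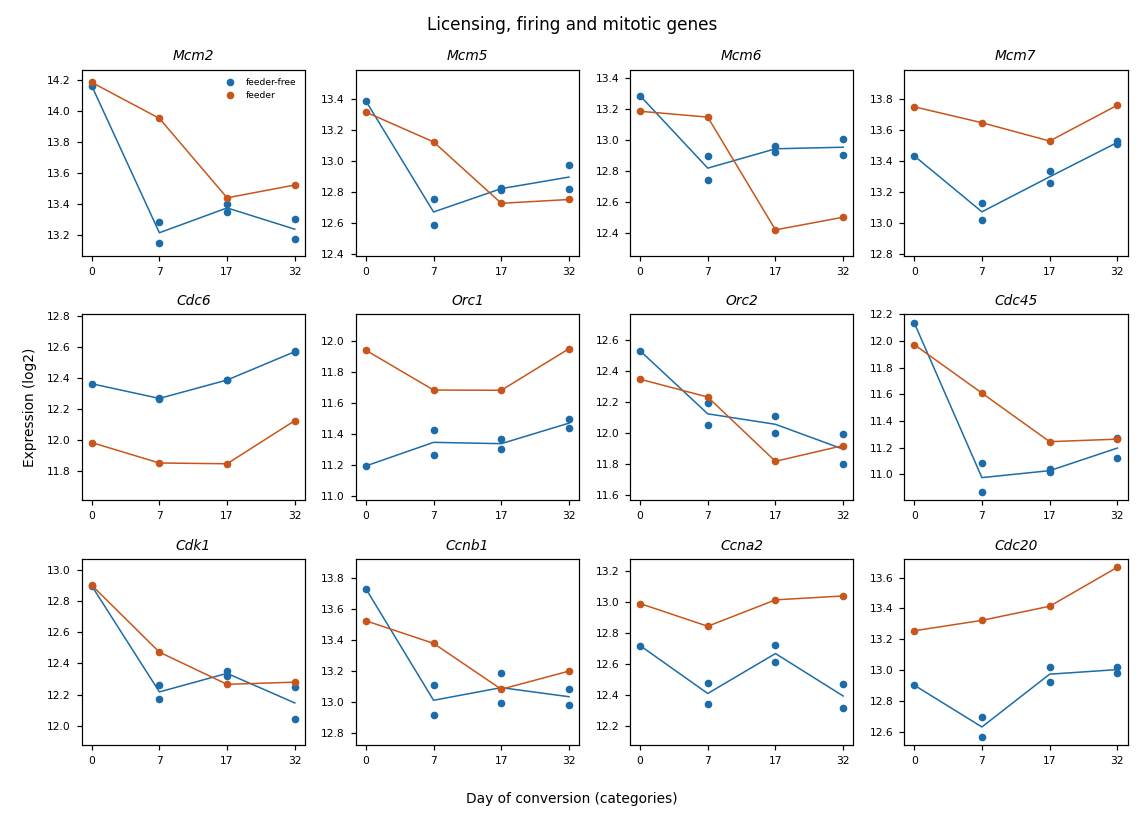
Each panel plots log2 expression of 1 licensing, firing or mitotic gene against the day of conversion, evenly spaced, with a point per array and lines through the means of the feeder-free (blue) and feeder (orange) cultures. Mcm2 drops from 14.16 to 13.15 and 13.28 by day 7 without feeder cells and to 13.44 by day 17 on them, while Mcm7 ends near its starting level.

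Promoters are shown for Mcm2, Mcm5, Cdk1 and Ccnb1, which fell, and for Cdc25a, which rose. The sequences are from RefSeq on the assembly GRCr8, where 57 of the 68 genes matched 63 windows that run from 250 bases before to 50 after the annotated start. Capitals mark 3 kinds of motif searched on both strands: E2F forms (TTTCCCGC, TTTGGCGC, TTTCGCGC or TTTGCCGC), forms of the cell cycle genes homology region, CHR (TTTGAA or TTTAAA), and CCAAT. Coordinates are chr4:122918045-122918344 on the minus strand for Mcm2, chr19:13488563-13488862 on the plus strand for Mcm5, chr20:19265043-19265342 on the plus strand for Cdk1, chr2:33655176-33655475 on the minus strand for Ccnb1 and chr8:118742798-118743097 on the plus strand for Cdc25a.
Mcm2: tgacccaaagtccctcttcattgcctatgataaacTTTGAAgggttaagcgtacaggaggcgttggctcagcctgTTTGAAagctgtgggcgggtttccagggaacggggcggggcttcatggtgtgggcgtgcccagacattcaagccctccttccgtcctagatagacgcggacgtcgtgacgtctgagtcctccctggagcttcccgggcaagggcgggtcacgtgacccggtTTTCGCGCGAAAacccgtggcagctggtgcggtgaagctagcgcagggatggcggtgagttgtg
Mcm5: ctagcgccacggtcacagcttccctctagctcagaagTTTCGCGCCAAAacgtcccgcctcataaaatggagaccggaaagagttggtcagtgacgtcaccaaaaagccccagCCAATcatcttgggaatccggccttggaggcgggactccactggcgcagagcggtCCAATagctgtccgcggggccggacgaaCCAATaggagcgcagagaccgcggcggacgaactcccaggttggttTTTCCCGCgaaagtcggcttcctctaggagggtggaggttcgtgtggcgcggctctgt
Cdk1: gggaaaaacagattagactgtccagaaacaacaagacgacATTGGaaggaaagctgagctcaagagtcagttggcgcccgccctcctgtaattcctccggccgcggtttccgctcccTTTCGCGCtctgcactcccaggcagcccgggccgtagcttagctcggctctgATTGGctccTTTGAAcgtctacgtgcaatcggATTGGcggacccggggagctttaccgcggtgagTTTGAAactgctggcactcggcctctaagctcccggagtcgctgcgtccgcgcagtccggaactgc
Ccnb1: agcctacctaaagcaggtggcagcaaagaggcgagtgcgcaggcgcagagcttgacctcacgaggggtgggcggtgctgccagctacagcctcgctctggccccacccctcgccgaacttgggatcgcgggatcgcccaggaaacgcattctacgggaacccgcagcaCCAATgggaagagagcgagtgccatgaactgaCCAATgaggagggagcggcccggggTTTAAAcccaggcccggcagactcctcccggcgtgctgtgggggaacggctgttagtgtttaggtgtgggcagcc
Cdc25a: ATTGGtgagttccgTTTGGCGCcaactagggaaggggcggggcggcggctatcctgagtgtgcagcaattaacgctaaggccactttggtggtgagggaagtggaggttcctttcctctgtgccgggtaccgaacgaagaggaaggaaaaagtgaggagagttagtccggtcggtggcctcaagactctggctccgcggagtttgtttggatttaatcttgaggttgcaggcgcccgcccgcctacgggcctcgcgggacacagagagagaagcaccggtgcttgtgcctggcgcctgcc
The Mcm2 window held an E2F form on each strand, overlapping in TTTCGCGCGAAA, the Mcm5 window held 3 matches, and Cdk1 and Cdc25a held 1 each. The Ccnb1 window held none and had 1 CHR form and 2 CCAAT motifs. An E2F form was found in 9 of the 63 windows (14.3%), against 2.14% of the 33469 windows of the whole RefSeq table and 3.08% of the 12536 windows of genes on the array. CHR forms were in 30.2%, against 28.3% of the table and 23.7% of the array genes' windows, and CCAAT in 55.6%, against 37.5% and 38.2%. Of the genes with a window, an E2F form was present for 3 of 10 that fell from day 0 to day 32 (Cdk1, Mcm2 and Mcm5), for 1 of 7 that rose (Cdc25a) and for 5 of 40 that did not pass (Mcm6, Mcm7, Mcm8, Orc3 and Orc5). No window was found for Ccna2, Ccnd2, Ccne2, Cdc6, Cdc16, Cdk6, Cdk9, Cdk13, Cdk17, Orc1 and Orc4. Among these Ccne2, Cdc16, Cdk9 and Cdk13 rose and Cdk6 fell, so the groups were not covered evenly. A match describes letters in the window and not binding.

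Among the phosphatases that activate CDKs, Cdc25a rose and Cdc25b fell early. Cdc25a, which acts on CDK2 complexes in G1 and S phase, was at 12.08 without feeder cells at day 0, 12.12 and 12.20 at day 7, 12.61 and 12.56 at day 17 and 12.79 and 12.72 at day 32. In the feeder culture it was at 12.58, 12.62, 13.17 and 13.15. Both cultures stayed at the starting level until day 7 and were higher from day 17, and the feeder culture was the higher one on each day. The rise from day 7 to day 17 was 0.47 ± 0.07 (SE, adjusted p = 0.00926) and from day 0 to day 32 0.64 ± 0.08 (SE, adjusted p = 0.000851). The cultures differed by 0.49 ± 0.06 (SE, adjusted p = 0.000295). Cdc25a passed from day 7 to day 17 whichever array was left out. It was then the 1 gene to pass without the first feeder-free array of day 7, any feeder-free array of day 17 or 32, or the feeder array of day 17.

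Cdc25b, which acts on CDK1 complexes at the entry into mitosis, was at 10.99 on the feeder-free array of day 0, 9.65 on both arrays of day 7, 9.84 and 9.81 at day 17 and 10.17 and 10.07 at day 32. The feeder arrays stood at 10.55, 10.43, 10.35 and 10.22. The change to day 7 was -1.34 without and -0.12 on feeder cells, and the difference of 1.21 ± 0.18 (SE) passed (adjusted p = 0.000236), so that the joint change of -0.81 ± 0.23 (SE, adjusted p = 0.0438) averages unlike values. Cdc14a, a phosphatase that removes phosphates set by CDKs, went the other way between the cultures: its change to day 7 was 1.32 without and -0.18 on feeder cells (difference -1.4996 ± 0.20, SE, adjusted p = 7.32e-05). Cdc25c was lower on feeder cells (-0.42 ± 0.08, SE, adjusted p = 0.00412).

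The parts of ubiquitin ligases differed more between the cultures than over time. Cdc16, a subunit of the anaphase-promoting complex, was at 11.91 to 12.31 on feeder cells and at 12.98 to 13.44 without, with no overlap and a difference of -1.09 ± 0.07 (SE, adjusted p = 1.2e-05). Cdc23, of the same complex, was lower on feeder cells as well (-0.34 ± 0.09, SE, adjusted p = 0.0171), and Cdc26 and Cdc27, of the same complex, did not pass. Cdc20, which activates the complex in mitosis, was higher, at 13.26 to 13.67 against 12.57 to 13.02 (difference 0.55 ± 0.07, SE, adjusted p = 0.00052), and so was Cdc34, a ubiquitin-conjugating enzyme (0.61 ± 0.07, SE, adjusted p = 0.000231). Over time Cdc16 rose by day 32 (0.32 ± 0.10, SE, adjusted p = 0.0327), a call lost under either other scaling, and Cdc23 fell by day 7 (-0.50 ± 0.13, SE, adjusted p = 0.0314).

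Of the 9 genes for transcriptional CDKs, their cyclins and the CDK-activating kinase, 4 rose from day 0 to day 32 and none fell, against 17.4% of all genes higher and 13.7% lower, and the median change was 0.24 against 0.05. Cdk19, a kinase of the Mediator complex, was at 10.78 without feeder cells at day 0, 11.48 and 11.62 at day 7, 11.68 and 11.78 at day 17 and 11.91 and 11.81 at day 32. On feeder cells it was at 10.71, 10.40, 11.79 and 11.66. The rise was 0.99 ± 0.25 (SE, adjusted p = 0.0174) and came after day 7 on feeder cells (difference in the change to day 7 -1.09 ± 0.19, SE, adjusted p = 0.000909). Cdk7, the CDK-activating kinase, rose by 0.70 ± 0.19 (SE, adjusted p = 0.0221), while its cyclin Ccnh did not pass. Cdk9, which releases paused RNA polymerase II, and Cdk13, which phosphorylates the same polymerase, rose by 0.60 ± 0.16 and 0.42 ± 0.09 (SE). Their relative Cdk8 did not pass in any comparison.

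Among the remaining CDKs Cdk20 had the largest rise of the 68 genes. It was at 9.73 without feeder cells at day 0, 11.33 and 11.55 at day 7, 11.71 and 11.65 at day 17 and 11.40 and 11.41 at day 32. In the feeder culture it was at 9.87, 10.76, 11.61 and 11.64. The stem cells of both cultures were below every other array, and the feeder array of day 7 lay in between. The change was 1.40 ± 0.20 to day 7 (SE, adjusted p = 0.00399) and 1.67 ± 0.20 to day 32 (SE, adjusted p = 0.000592), and both calls held under each alternative that was run.

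Cdk14, a membrane-bound kinase known to work in Wnt signalling, was raised for a time. Without feeder cells it was at 9.54 at day 0, 11.13 and 11.39 at day 7, 11.27 and 11.48 at day 17 and 10.08 and 9.93 at day 32. The feeder arrays stood at 10.36, 10.01, 11.31 and 10.80. The feeder-free cells were high at days 7 and 17, and the feeder culture was highest at day 17. Its change to day 7 differed between the cultures by -2.07 ± 0.22 (SE, adjusted p = 1.14e-05) and that from day 7 to day 17 by 1.18 ± 0.21 (SE, adjusted p = 0.000901). In the fit of all arrays with terms for day and culture it passed between no days, and its change from day 17 to day 32 was -1.09 ± 0.38 (SE, adjusted p = 0.499). That change passed when days 17 and 32 were fitted alone and without the feeder array of day 7. Cdk17 had a like course without feeder cells, at 8.998, then 10.13 and 10.51, 10.38 and 10.22, and 9.44 and 9.56. On feeder cells it was at 10.11, 10.60, 11.20 and 10.78, higher on each day. It rose to day 7 (1.00 ± 0.22, SE, adjusted p = 0.0201), and this change was smaller on feeder cells (difference -0.83 ± 0.24, SE, adjusted p = 0.022).

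The cyclins G moved apart. Ccng1, a target of p53, rose from day 0 to day 32 by 0.51 ± 0.11 (SE, adjusted p = 0.00759) and from day 7 to day 17 by 0.41 ± 0.10 (SE, adjusted p = 0.0318). Ccng2, which is known to be high in cells that stop dividing, fell to day 32 (-0.59 ± 0.14, SE, adjusted p = 0.013). Cdk10 fell (-0.57 ± 0.17, SE, adjusted p = 0.0348), a call that held in 3 of the 11 fits that left out an array, as did that of Ccng1 from day 7 to day 17 in 4. Cdk5, best known from neurons, was higher on feeder cells, at 11.14 to 11.30 against 10.18 to 10.90 (0.70 ± 0.09, SE, adjusted p = 0.00056). Of the 6 CDC genes with other functions, Cdc73, of the PAF1 transcription complex, and Cdc123, a translation factor chaperone, rose to day 32 (0.69 ± 0.14 and 0.44 ± 0.09, SE). Cdc40, a splicing factor, was at 10.30 to 10.56 on feeder cells and 11.28 to 11.72 without (-1.04 ± 0.07, SE, adjusted p = 1.47e-05), and Cdc37, a chaperone of kinases, was higher on feeder cells (0.72 ± 0.08, SE, adjusted p = 0.00018).

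Between the cultures 32 of the 68 genes passed, 20 higher and 12 lower on feeder cells, which is 47.1% against 32.7% of all genes (15.5% higher, 17.2% lower). Of these calls 30 held whichever array was left out. The labels do not say whether the arrays of successive days came from separate cultures. The p-values may therefore not measure the spread between separate cultures, and leaving out an array cannot show that spread either. Without overlap of the 4 feeder with the 7 feeder-free arrays, 15 genes were higher (22.1%, against 6.33% of all genes) and 6 lower (8.82%, against 8.68%). Both arrays of day 0 were above all arrays of days 17 and 32 for 13 genes (19.1%, against 14.5%) and below them for 12 (17.6%, against 19.8%).

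The changes in the 2 cultures were set side by side by size and sign. The median size of the change to day 7 was 0.41 without feeder cells and 0.18 on them, and it was the larger one without feeder cells for 53 of the 68 genes. To day 32 the median sizes were 0.38 and 0.32, with 33 genes higher in both cultures, 26 lower in both and 9 of opposite sign. These sizes and counts were taken for the 68 genes alone. Whether they differ from those of all genes was not tested. The change to day 7 differed between the cultures for 19 genes (27.9%, against 22% of all genes), that from day 7 to day 17 for 15 (22.1%, against 19.7%) and that from day 0 to day 32 for 4 (5.88%, against 10.6%). By sign, the change on feeder cells minus that without was positive for 10, 8 and 2 genes in these intervals (10.9%, 10.7% and 5.87% of all genes) and negative for 9, 7 and 2 (11.2%, 8.97% and 4.73%). With median centring the split was 20 to 8 in the first interval and 6 to 17 in the second, and with quantile normalization it was 10 to 15 in the second and 2 to 4 over the whole time. The 4 were Ccnd2, Cdkn1a, Cdkn1b and Ccnf. The shares for the first and second interval lie near those of all genes. At day 32 the levels still differed in both directions, as for Cdk4 (0.99 higher on feeder cells) and Cdc40 (a difference of -1.02). These tests take their spread from the feeder-free pairs alone, with 3 residual degrees of freedom, and share the arrays of day 0 or of day 7. The means of the pluripotency, hypoblast and trophoblast markers on the feeder array of day 7, given above, moved with the smaller changes to day 7, and their part was not tested.

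**Figure D4:**
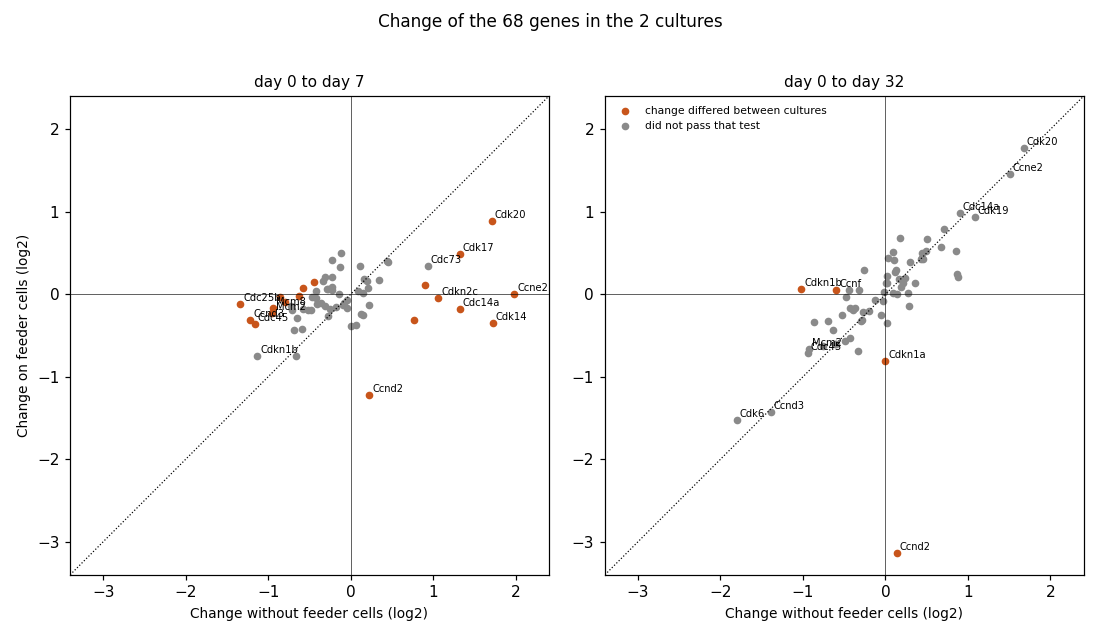
Each point is 1 of the 68 genes, with its log2 change without feeder cells (horizontal) and on feeder cells (vertical) from day 0 to day 7 (left) and to day 32 (right); orange points are the 19 and the 4 genes whose change differed between the cultures. On the left 53 of the 68 genes have the larger change without feeder cells, Ccnd2 (0.23 and -1.22) being an exception, and on the right 33 are higher and 26 lower in both cultures, while Ccnd2 is at 0.14 and -3.14. These counts were not taken over all genes.

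Other genes of the same machinery, none of them among the 68, were read from the same fits. Of all genes, 17.4% were higher and 13.7% lower at day 32 than at day 0, which is the background for each count that follows. Of 24 replication fork and nucleotide genes 11 fell and 3 rose from day 0 to day 32, with a median change of -0.26 against 0.05 for all genes. Pola1, the catalytic subunit of DNA polymerase alpha, fell (-1.45 ± 0.26, SE, adjusted p = 0.0033), as did Pold2, of polymerase delta (-1.08 ± 0.14, SE, adjusted p = 0.000779), and Tk1, thymidine kinase, rose (0.87 ± 0.23, SE, adjusted p = 0.0192). Of 8 partners in licensing and of the helicase 4 fell and 1, Gmnn (geminin, the inhibitor of relicensing), rose by 0.51 ± 0.08 (SE, adjusted p = 0.0023).

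Of 12 genes of the RB and E2F group 6 fell and none rose from day 0 to day 32, against 13.7% and 17.4% of all genes. Rb1, the retinoblastoma gene itself, fell by day 32 (-0.94 ± 0.10, SE, adjusted p = 0.000364), and so did E2f8, a repressor (-1.14 ± 0.13, SE, adjusted p = 0.00057), and Mybl2, an activator of mitotic genes (-0.97 ± 0.21, SE, adjusted p = 0.0074). Of 11 DNA damage and p53 genes 5 fell and 3 rose, against the same shares. The checkpoint kinase gene Chek1 had the largest fall (-1.62 ± 0.20, SE, adjusted p = 0.000733), and Wee1, which restrains CDK1, fell too (-0.89 ± 0.14, SE, adjusted p = 0.00205). Of 20 mitotic kinase and checkpoint genes 4 fell and 2 rose, and of 16 regulators by degradation 3 fell and 2 rose. These shares, 30% and 31.2%, are about the 31% of all genes. Skp2, which marks p27 for degradation, fell by day 32 (-0.92 ± 0.13, SE, adjusted p = 0.00128).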

How the data were processed

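The table that the authors deposited gives log2 expression of each probe set on each array; the submitters' processing notes name RMA, whose version and options are not given in the sources used here. All 11 arrays share a median of 8.97. RMA draws low values together, so changes of dim genes are understated. Scanner files were not used here, and precision is limited by the number of arrays.

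Of 29214 probe sets, 15310 were paired with 1 gene symbol by the platform annotation, 323 with several and 13581 with none; 15279 gene identifiers matched RefSeq (GRCr8), with 0 symbols changed. Genes with several probe sets were represented by the brightest, which left 14506; among the 68 this concerned Ccnb2. No dim genes were removed. Feeder-free pairs correlated at 0.997 to 0.998, with 0 identical values.

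limma 3.58.1 (R 4.3.3; lmFit, eBayes) was fitted to all genes and 11 arrays with terms for day and culture (6 residual degrees of freedom), and with 8 groups for differences in change between the cultures (3 residual degrees of freedom). Changes are given ± the standard error, and adjusted p-values (Benjamini-Hochberg over 14506 genes) under 0.05 were called. The labels do not say whether replicates were separate cultures, so p-values may measure technical spread. In the fit with terms for day and culture, the spread also holds differences between the cultures in their changes over time. On simulated data the first fit recovered 98% of genes changed by 1 from day 0 to day 7, and 72% at 0.5. The 8-group fit recovered 42% and 0% for the difference between the cultures over the same days. Recovery on the measured arrays, where 22% of all genes differed between the cultures in their change to day 7, was not tested.

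The genes, roles and lists were chosen with earlier results of these data known. By the rule for naming, core genes were always named, with up to 4 called genes per role and comparison and 3 per other list; the text gives a part of them. The receptor genes became the background reference once the data had been seen. As alternatives, the dimmest 25% of genes were removed, probe sets of a gene averaged, arrays quantile-normalized or median-centred, eBayes run with trend and robust, a replicate block added, the 8-group fit used, the culture term dropped, feeder-free arrays fitted on their own, each array left out in turn and, added after seeing the data, days 17 and 32 alone. Figures used matplotlib 3.10.9.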

Additional observations from a re-analysis of the deposited data

Results flagged for a closer look

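The change of 25 genes over 1 or more intervals differed between the cultures by a test of the difference itself, the change on feeder cells minus the change without them (limma, 8 groups, adjusted p under 0.05 over all genes). Differences are on the log2 scale. The tests of successive intervals share the arrays of day 7, so a gene that was late on feeder cells is counted in both with opposite signs.

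From day 0 to day 7 the difference was negative for Cdk14 (-2.07), Ccne2 (-1.98), Cdc14a (-1.4996), Ccnd2 (-1.45), Cdkn2c (-1.11), Cdk19 (-1.09), Cdk17 (-0.83), Cdk20 (-0.82) and Cdk7 (-0.79). It was positive for Cdc25b (1.21), Ccnd3 (0.90), Cdk6 (0.82), Cdc45 (0.80), Mcm8 (0.78), Mcm2 (0.72), Cdk10 (0.70), Cdk4 (0.65), Cdk5 (0.61) and Orc5 (0.59). Most of the first group had risen without feeder cells by day 7, and most of the second had fallen there.

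From day 7 to day 17 it was positive for Ccne2 (1.62), Cdk19 (1.21), Cdk14 (1.18), Cdc14a (1.16), Cdk7 (0.70), Cdk2 (0.63), Cdk20 (0.61) and Cdkn1b (0.58). It was negative for Ccnd2 (-0.90), Ccnd3 (-0.86), Mcm6 (-0.85), Mcm8 (-0.69), Mcm2 (-0.67), Cdk10 (-0.62) and Cdk9 (-0.55).

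From day 0 to day 32 it was negative for Ccnd2 (-3.28) and Cdkn1a (-0.81) and positive for Cdkn1b (1.09) and Ccnf (0.64). The difference of Ccnd2 had the same sign in both intervals and over the whole time, and all 3 passed. Each of these 3 sets rests on single feeder arrays, and the first and last rest on 1 feeder-free array of day 0.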

How the results depend on the processing

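Of the counts of genes called among the 68, that between the cultures (32) stayed within 1.5 times under each alternative, as did that of the change from day 0 to day 32 by culture (4). From day 0 to day 7 (15) the count was 30 with the 8-group fit, 5 without the culture term, 37 on the feeder-free arrays alone and 1 to 32 with 1 array left out. From day 7 to day 17 (2) it was 18, 0 and 8 under the same 3 settings, where the 0 had 266 calls among all genes, and 1 to 3 with 1 array left out. From day 17 to day 32 (0) it was 6 with the 8-group fit, 6 on the feeder-free arrays alone, 5 with days 17 and 32 alone and 0 to 3 with 1 array left out. From day 0 to day 32 (22) it was 43 with the 8-group fit, 36 on the feeder-free arrays alone and 8 to 34 with 1 array left out. The difference between the cultures in the change to day 7 (19) was called for 30 genes after quantile normalization and 29 with trend and robust, and that from day 7 to day 17 (15) for 25, 23 with median centring and 23 with trend and robust. The feeder-free arrays alone hold no feeder array. The 8-group fit averages the changes of both cultures. Unlike the fit with terms for day and culture, it does not count a difference between these changes as spread. The cause of the shifts was not tested.

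Over all genes the count from day 0 to day 7 (2322) ran from 684 to 5348, from day 7 to day 17 (1850) from 266 to 5347, from day 17 to day 32 (0) from 0 to 1062, from day 0 to day 32 (4504) down to 2536 and between the cultures (4749) up to 7699. The culture difference of Ccne2, -0.11, ran from -0.33 to 0.37 with 1 array left out and passed, with the sign turned, at 0.37 without the feeder array of day 7.

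Replicate numbers did not pair the arrays: the difference between replicates 1 and 2 correlated at 0.03, -0.20 and -0.10 between the days. With the replicate number as a block, 6 genes were called from day 0 to day 7, 1 from day 7 to day 17, 18 from day 0 to day 32, 20 for the culture difference to day 7, 16 to day 17 and 4 to day 32. Depth cannot be given for arrays, and genes with means under the 8.10 of the receptor genes have changes that RMA understates.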
